A study of Mus musculus with 11 samples.

Results

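The genes described here burn fatty acids. They are 34 genes of fatty acid oxidation and of the peroxisome, chosen by symbol from a fixed list. That list was made with earlier results of these data known. All 34 were found, on 1 row each, among the 24421 rows of the count table. They comprise the 3 PPAR receptor genes, 1 gene of fatty acid uptake, 4 of the carnitine shuttle, 15 of mitochondrial oxidation and electron transfer, the kinase gene Pdk4, and 10 of peroxisomal oxidation, assembly and transport. All 34 passed the filter on low counts, with at least 17 counts in every library.

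Poly(A) RNA was sequenced from epithelial cells of fetal mouse lung at E17.5, held back from dissociated lungs by microbeads against the epithelial surface protein EpCAM. There were 6 Control libraries and 5 knockout libraries, the latter labelled PRDM3/16KO. In the knockout, floxed alleles of Prdm16 and Prdm3 (the gene now called Mecom) were recombined by ShhCre, a Cre carried at the Shh locus, which is expressed in the embryonic lung epithelium and outside the lung. Per the labels' protocols, ShhCre came from Prdm3fl/fl Prdm16fl/wt fathers and the mothers were Prdm3fl/fl Prdm16fl/fl. The labels call the other group only Control and do not say which floxed alleles it carried or whether it carried Cre. They also do not say whether each library came from a separate embryo, and give no litter or sex, so the p-values rest on the scatter of these libraries, which may be partly technical.

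Fatty acids enter cells in part through the surface protein CD36, are joined to coenzyme A, and cross the inner mitochondrial membrane as carnitine esters. Inside, an acyl-CoA dehydrogenase, a hydratase, a hydroxyacyl-CoA dehydrogenase and a thiolase shorten the chain in repeated turns, and the electrons pass through electron transfer flavoprotein to the respiratory chain. Peroxisomes shorten very long and branched chains by a parallel set of enzymes whose first step makes hydrogen peroxide, which catalase removes. The PPARs are nuclear receptors that bind lipids, pair with RXR and switch on many of these genes. In the lung, type 2 cells hold peroxisomes and handle much lipid, since they make the phospholipid of surfactant.

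PPAR and RXR bind a direct repeat of AGGTCA with any single base (N) between the copies. RefSeq promoter windows (GRCm38.p6, 250 bases before to 50 after a transcription start) were present for 29 of the 34 genes, 34 windows in all. With at most 2 mismatches and on either strand, 4 of these windows held the repeat, 11.8%, against 3.86% of all 32851 windows. They are shown because they are the members' windows that hold the repeat: transcripts of Cat, Cd36 and Slc25a20 fell in the knockout and those of Etfa did not pass the test. Capitals mark the match, which has 2 mismatches in each window, and each sequence reads 5′ to 3′ on the strand of its gene.

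Cd36, chr5:17835847-17836146 (minus strand): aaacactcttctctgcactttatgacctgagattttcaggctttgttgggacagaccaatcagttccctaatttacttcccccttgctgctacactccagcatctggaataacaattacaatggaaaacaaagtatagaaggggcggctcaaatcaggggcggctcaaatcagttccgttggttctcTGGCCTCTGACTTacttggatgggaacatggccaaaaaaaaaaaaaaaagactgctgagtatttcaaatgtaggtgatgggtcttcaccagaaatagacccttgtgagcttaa
Slc25a20, chr9:108661886-108662185 (plus strand): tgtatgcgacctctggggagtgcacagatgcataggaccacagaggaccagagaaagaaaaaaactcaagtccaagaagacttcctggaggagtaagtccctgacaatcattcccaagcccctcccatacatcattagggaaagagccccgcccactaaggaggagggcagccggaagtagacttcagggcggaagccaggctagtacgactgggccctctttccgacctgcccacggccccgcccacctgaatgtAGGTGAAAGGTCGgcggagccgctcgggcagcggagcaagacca
Cat, chr2:103485104-103485403 (minus strand): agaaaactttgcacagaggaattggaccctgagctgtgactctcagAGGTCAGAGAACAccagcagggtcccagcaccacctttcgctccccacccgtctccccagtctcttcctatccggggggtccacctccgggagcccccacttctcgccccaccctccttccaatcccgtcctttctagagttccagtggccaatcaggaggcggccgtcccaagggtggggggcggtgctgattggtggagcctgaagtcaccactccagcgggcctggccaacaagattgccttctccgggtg
Etfa, chr9:55512194-55512493 (minus strand): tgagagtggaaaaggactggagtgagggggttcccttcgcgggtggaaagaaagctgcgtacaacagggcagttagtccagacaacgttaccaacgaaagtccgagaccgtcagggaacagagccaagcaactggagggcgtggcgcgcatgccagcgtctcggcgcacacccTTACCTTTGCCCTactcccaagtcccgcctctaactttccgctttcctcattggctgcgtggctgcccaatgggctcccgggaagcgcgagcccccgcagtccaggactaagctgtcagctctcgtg

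The match began 63 bases before the RefSeq start of Cd36, 204 before that of Cat and 77 before that of Etfa, and 6 bases after that of Slc25a20. The half-site AGGTCA alone, which is part of the repeat, stood in 20.6% of the members' windows and in 16.3% of all windows, among them those of Cpt1a, Acadm, Acadvl and 2 of Pparg. A match is a description of the letters, and binding was not measured.

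The 2 targeted genes were read first. Prdm16 was lower in the knockout by 0.28 on the log2 scale (edgeR, adjusted p = 0.00905), at 202 ± 21.9 against 166 ± 12.2 CPM (mean ± SD of 6 Control and 5 knockout libraries, as throughout). CPM, the usual depth-normalised count, were computed on TMM-scaled library sizes (TMM is the trimmed mean of M values). Mecom was higher in the knockout, at 219 ± 9.99 and 340 ± 16.0 CPM. Counts were made over the full gene and the deleted exons are not named, so these levels check the deletion only weakly. Epcam had 252 ± 25.3 and 261 ± 10.8 CPM, and its log2 fold change of 0.05 was not called (edgeR, adjusted p = 0.601). Totals ran from 6065906 to 7869787 counts per library. Libraries of a group correlated at 0.962 to 0.992 in log2 CPM, and libraries of different groups at 0.919 to 0.944.

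Most of the 34 genes were lower in the knockout. At an adjusted p under 0.05 in edgeR's quasi-likelihood test, 20 fell, 5 rose and 9 did not pass. Together 25 of 34 (73.5%) were called, where 42.9% of all 13916 genes tested were called. The share that fell was 58.8%, against 21.8% of all genes, and the share that rose 14.7%, against 21.1%. The genes were chosen with earlier results of these data known, so these shares only describe the list. With library-size scaling alone, which moved the all-gene median log2 fold change to 0.107, 17 fell and 5 rose, and over all genes 2095 fell and 3992 rose, against 3037 and 2936 with TMM. The median log2 fold change (knockout over Control) was -0.28, and 0.0023 over all genes. Ranges of CPM did not overlap between the groups for 20 of the 34, 16 of them lower and 4 higher, 58.8% against 28.5% of all genes. The 34 together summed to 1858 ± 199.7 CPM in Control, from 1606 to 2190, and to 1327 ± 46.2 CPM in the knockout, from 1277 to 1373, so every knockout library lay below every Control library. Cat, Cd36 and Abcd3, the most abundant by CPM in Control, weigh most in the Control sum.

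**Figure D1:**
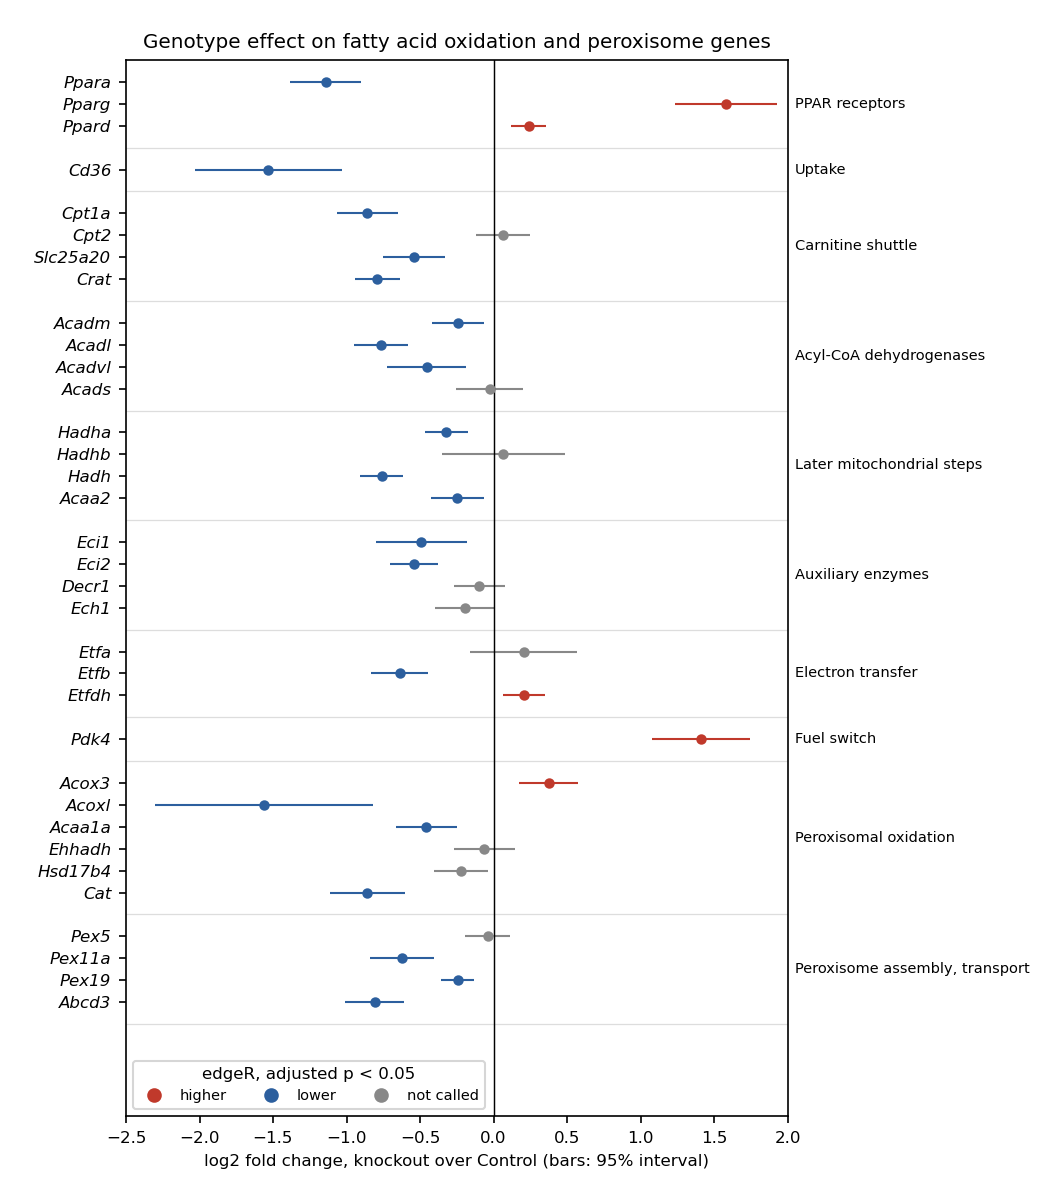
Log2 fold change of each of the 34 genes, knockout over Control (x axis), by role, with 95% intervals from 6 Control and 5 knockout libraries. Points are red where called higher, blue where called lower and grey where not called: 20 are blue and 5 are red, with Pparg (1.58) and Pdk4 (1.41) farthest right and Acoxl (-1.56) and Cd36 (-1.53) farthest left.

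With the mean level of mesenchymal markers as a covariate, 12 of the 34 fell and 3 rose, and over all genes 1500 fell and 1611 rose. Ppard, Slc25a20, Acadm, Acadvl, Hadha, Acaa2, Eci1, Etfdh, Acoxl and Pex19 were no longer called. Standard errors of the 34 genes were larger in that fit, by a median of 1.58 times. Among the genes no longer called, the log2 fold change was -0.64 for Eci1, -0.25 for Pex19, 0.22 for Ppard and -0.42 for Acadvl, and it was nearer 0 for Slc25a20 (-0.33), Acadm (-0.16) and Acaa2 (-0.13). Among the 6 libraries with low Y-linked transcripts (2 of them Control), a division made after seeing the data, 14 fell and 4 rose (1821 and 1932 over all genes), and among the 5 with high Y-linked transcripts, only 1 of them a knockout, 9 fell and 2 rose (933 and 869 over all genes).

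Transcripts that mark type 2 cells fell in the same libraries. Of 18 such markers 17 fell, and Lyz2 did not pass. Their mean log2 CPM was 9.08 to 9.93 in Control and 7.46 to 7.94 in the knockout, with no overlap. Lists of mesothelial, dissociation-response, endothelial and neuroendocrine genes also lay apart, in the other direction, with the endothelial and neuroendocrine values given below. Of 7 mesothelial genes 6 rose, with mean log2 CPM of 3.28 to 3.96 and 4.71 to 5.19, and of 10 dissociation-response genes 4 rose and 2 fell, with means of 9.99 to 10.17 and 10.21 to 10.5. Over all genes tested 21.8% fell and 21.1% rose. The part of the mesothelial and other lists that lay higher in the knockout was not tested. In bulk RNA, fewer cells of a type and less RNA per cell cannot be told apart. With the type 2 marker mean as a covariate, an alternative chosen after seeing the data, Eci2 alone was called lower, and Pparg, Pdk4, Cd36 and Acoxl were called higher. Genotype and the type 2 level cannot be told apart in these libraries, because the marker level separates the groups. Among Control libraries, library 4 had the highest and library 6 the lowest type 2 marker mean, and these were also the highest and the lowest for 8 of the 34 genes. Of these, 6 fell (Cd36, Slc25a20, Acadm, Acoxl, Cat and Abcd3), Pdk4 rose and Etfa did not pass. Eci2, which fell, had the opposite order, with its lowest Control value in library 4 and its highest in library 6. The share of all genes tested with either order was not counted, so the 8 of 34 has no background beside it.

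The 3 PPAR genes moved apart. Ppara encodes the receptor best known for driving fatty acid oxidation (chromosome 15, 85734983 to 85802819, plus strand; GENCODE M21 on GRCm38, as are all gene positions here). Its CPM had a lowest, median and highest value of 21.4, 28.8 and 33.2 in Control, and was 12.7, 12.6, 12.2, 13.4 and 12.3 in knockout libraries 1 to 5. The groups did not overlap, and the knockout libraries lay within a narrow band. Ppara fell 2.21-fold, from 28.0 ± 4.42 to 12.6 ± 0.467 CPM (SD, n = 6 and n = 5; log2 fold change -1.14, SE 0.112; edgeR, adjusted p = 8.53e-07).

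Pparg, known as the receptor of fat cell formation and of alveolar macrophages (chromosome 6, 115360951 to 115490399, plus strand), went the other way. It had 3.58, 4.23 and 5.86 CPM (lowest, median, highest) in Control and 11.5, 10.4, 16.5, 15.1 and 12.3 CPM in the knockout libraries. Every knockout library was above every Control library, knockout libraries 3 and 4 most. Pparg rose 2.99-fold, from 4.44 ± 0.898 to 13.2 ± 2.55 CPM (SD, n = 6 and n = 5; log2 fold change 1.58, SE 0.163; edgeR, adjusted p = 1.43e-06).

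Markers of other cells that use Pparg were higher in part, where 21.1% of all genes tested rose and 21.8% fell. Of 16 immune markers tested 9 rose and 1 fell, and their mean log2 CPM was 1.79 to 3.33 in Control and 3.15 to 4.38 in the knockout. None of the 18 listed was at 0 in all libraries, and their summed level was 414 to 1464 CPM in Control and 593 to 1008 CPM in the knockout. Of 16 mesenchymal markers tested 8 rose and 0 fell, with mean log2 CPM of 3.92 to 4.52 and 4.33 to 5.06 and sums of 527 to 864 and 813 to 1390 CPM; none of the 17 in the table was at 0 in all libraries. Of the 7 genes tested in a list of lipofibroblast markers 2 rose, Fgf10 and Pparg itself, 1 fell (Plin2, -0.58), and the median was -0.03, with a mean log2 CPM of 4.13 to 4.56 in Control and 4.41 to 4.88 in the knockout. Among knockout libraries, library 3 had the highest Pparg and the highest mesenchymal and lipofibroblast means, and library 2 had the lowest Pparg and the highest immune mean. The lipofibroblast mean includes Pparg itself, and its list shares genes with the mesenchymal list, so these means are not independent readings. With the mesenchymal covariate the log2 fold change of Pparg was 1.498. Low-Y libraries gave 1.81 and high-Y libraries 1.62. The part of immune cells and lipofibroblasts in the rise was not tested.

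Ppard, the most widely expressed PPAR gene (chromosome 17, 28232700 to 28301474, plus strand), changed least. It had 88.8, 95.1 and 105.7 CPM (lowest, median, highest) in Control and 115.9, 115.2, 113.2, 113.7 and 108.8 CPM in the knockout libraries. Its groups did not overlap either, and it rose 1.18-fold (log2 fold change 0.24, SE 0.0554; edgeR, adjusted p = 0.00269). With the mesenchymal covariate the log2 fold change was 0.22 and was not called (edgeR, adjusted p = 0.0926).

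Scaled by annotated exon length, the order of the 3 receptors differed between the groups. Per kilobase of annotated exon, Control had 12.8 ± 0.776 CPM of Ppard, 7.31 ± 1.15 of Ppara and 1.502 ± 0.304 of Pparg (SD, n = 6). Knockout libraries had 15.1 ± 0.369 of Ppard, 4.46 ± 0.862 of Pparg and 3.30 ± 0.122 of Ppara (SD, n = 5). In the knockout Pparg (3.51 to 5.59 per kilobase) thus stood above Ppara (3.17 to 3.49), while in Control Ppara (5.57 to 8.66) stood above Pparg (1.21 to 1.98). The log2 ratio of Ppara over Pparg in CPM was 2.37 to 3.01 in Control libraries and -0.44 to 0.28 in knockout libraries. In CPM, Ppara was above Pparg in knockout libraries 1 (12.7 and 11.5) and 2 (12.6 and 10.4). It was below Pparg in libraries 3 (12.2 and 16.5) and 4 (13.4 and 15.1) and level with it in library 5. The knockout order of these 2 genes therefore rests on the exon lengths used.

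**Figure D2:**
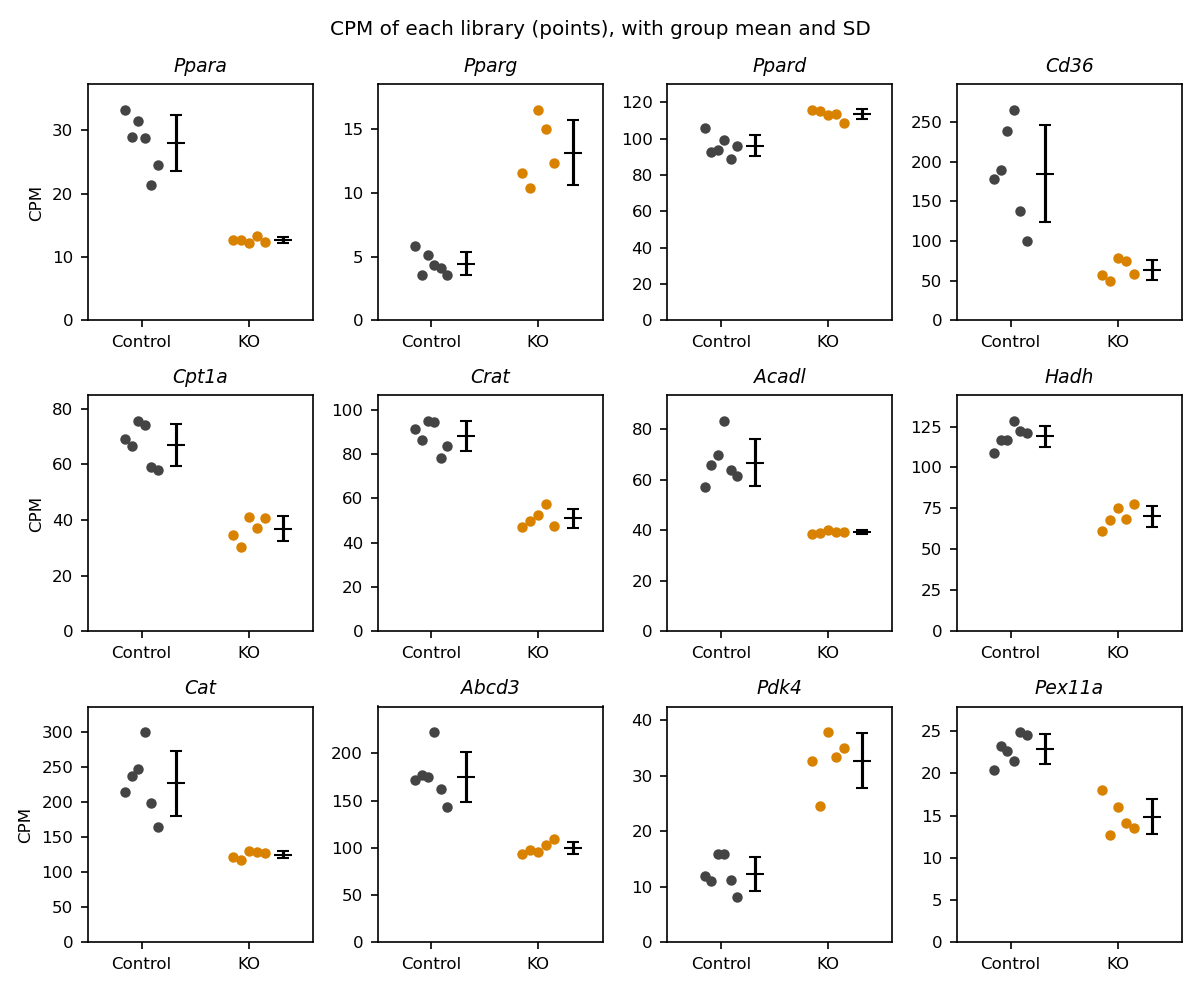
CPM (y axis, from 0) of 12 of the genes in each of 6 Control (grey) and 5 knockout (KO, orange) libraries, in order of library number, with the group mean and SD to the right. No panel shows overlap between groups; Pparg, Ppard and Pdk4 are higher in the knockout and the other 9 lower.

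Fatty acid uptake was represented by Cd36 (chromosome 5, 17781690 to 17888801, minus strand), whose protein also marks capillary endothelium and macrophages. It had 99.5, 184 and 265 CPM (lowest, median, highest) in Control and 57.0, 49.5, 79.0, 75 and 57.9 CPM in the knockout libraries. Control libraries 5 and 6 were the lowest Controls, at 138 and 99.5 CPM, yet lay above every knockout library. These 2 libraries also had the highest mean log2 CPM of proliferation markers, 4.83 and 5.22, against 3.59 to 4.19 in Control libraries 1 to 4. The part of that difference in the results was not tested. Cd36 fell 2.89-fold (log2 fold change -1.53, SE 0.23; edgeR, adjusted p = 1.30e-04), by 1.78 on the log2 scale without Control libraries 5 and 6. Among 13 endothelial markers tested, 7 rose and 1 (Kdr, named after its values were seen) fell, and their mean log2 CPM was 1.96 to 2.37 in Control and 2.43 to 2.75 in the knockout, with sums of 136 to 189 and 164 to 193 CPM and none of the 15 at 0 in all libraries. Over all genes tested 21.1% rose and 21.8% fell. The part of endothelial cells in the level of Cd36 was not tested.

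In the carnitine shuttle 3 of 4 genes fell. Cpt1a encodes the outer-membrane carnitine palmitoyltransferase, the step usually taken as rate-limiting (chromosome 19, 3322334 to 3385733, plus strand). It had 57.8, 67.8 and 75.6 CPM (lowest, median, highest) in Control and 34.7, 30.4, 41.2, 37.2 and 40.8 CPM in the knockout libraries. The highest knockout library lay well below the lowest Control library, and Cpt1a fell 1.81-fold (log2 fold change -0.86, SE 0.0962; edgeR, adjusted p = 3.55e-06).

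Crat, a carnitine acetyltransferase that buffers acetyl-CoA (chromosome 2, 30400471 to 30415813, minus strand), had 78.4, 88.6 and 94.98 CPM in Control. Knockout libraries had 47.2, 49.8, 52.6, 57.3 and 47.7 CPM, all below Control. Crat fell 1.73-fold (log2 fold change -0.79, SE 0.0721; edgeR, adjusted p = 3.99e-07). Slc25a20, the carrier that exchanges acylcarnitine for carnitine across the inner membrane (chromosome 9, 108662088 to 108684641, plus strand; promoter shown above), had 27.5, 35.8 and 43.0 CPM in Control and 23.3, 24.2, 23.7, 26.1 and 24.7 CPM in the knockout libraries. Its ranges nearly met at Control library 6. It fell 1.46-fold (log2 fold change -0.54, SE 0.0999; edgeR, adjusted p = 4.33e-04), and the call was lost with the mesenchymal covariate (edgeR, adjusted p = 0.123).

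Cpt2, the inner-membrane palmitoyltransferase that follows that carrier, had 40.4 ± 4.83 CPM in Control and 42.3 ± 2.80 CPM in the knockout. Its log2 fold change was 0.06 (95% interval -0.12 to 0.25) and was not called (edgeR, adjusted p = 0.584).

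Of the 4 acyl-CoA dehydrogenase genes, which differ in the chain length of their substrate, 3 fell. Acadl, for long chains (chromosome 1, 66830839 to 66863277, minus strand), had 57.0, 64.7 and 83.4 CPM (lowest, median, highest) in Control. Its knockout libraries had 38.6, 38.9, 40.3, 39.5 and 39.2 CPM, a spread of 0.67 CPM (SD, n = 5) against 9.17 CPM in Control (SD, n = 6). Acadl fell 1.70-fold (log2 fold change -0.76, SE 0.0859; edgeR, adjusted p = 3.61e-06).

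The other dehydrogenases changed less. Acadvl, for very long chains, fell with overlapping ranges (log2 fold change -0.45; edgeR, adjusted p = 0.00893), and 42.9% of its exonic bases lie on Dvl2, a gene on the opposite strand. Among low-Y libraries the log2 fold change of Acadvl was -0.28 and was not called (edgeR, adjusted p = 0.203). Among high-Y libraries it was -0.47. Acadm, for medium chains, fell from 47.7 ± 5.59 to 40.3 ± 1.77 CPM, or -0.24 on the log2 scale (edgeR, adjusted p = 0.0258), again with overlap. Its call was lost when only library size was scaled (edgeR, adjusted p = 0.175), with upper-quartile factors (0.067), with each of the Y-linked (0.0952), mesenchymal and type 2 covariates, among low-Y libraries (log2 fold change -0.10) and high-Y libraries (-0.39), and without Control library 3 or knockout library 3, 4 or 5. Acads, for short chains, had 21.01 ± 3.37 and 20.7 ± 0.993 CPM, and its log2 fold change of -0.03 (95% interval -0.26 to 0.20) was not called (edgeR, adjusted p = 0.866) and changed sign under several settings.

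Later steps of the mitochondrial spiral fell in 3 of 4 cases. Hadh, the dehydrogenase for short and medium hydroxyacyl-CoA (chromosome 3, 131233419 to 131272101, minus strand), had 109, 119 and 128 CPM (lowest, median, highest) in Control and 61.5, 67.8, 75.3, 68.4 and 77.7 CPM in the knockout libraries. The groups were far apart against their spread. It fell 1.70-fold (log2 fold change -0.76, SE 0.0687; edgeR, adjusted p = 3.51e-07).

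Hadha and Hadhb encode the subunits of the trifunctional protein and lie head to head on chromosome 5 (30118304 to 30155162, minus strand, and 30155248 to 30184593, plus strand). Their RefSeq promoter windows share 228 bases. Hadha fell from 78.7 ± 7.05 to 62.9 ± 2.74 CPM without overlap (log2 fold change -0.32; edgeR, adjusted p = 0.00140). Hadhb was counted at only 3.85 ± 1.02 and 4.04 ± 0.552 CPM, and its log2 fold change of 0.07 (95% interval -0.35 to 0.49) was not called (edgeR, adjusted p = 0.810). Of the 50-base stretches of its first-listed transcript, 62.9% also occur in other genes, mainly the processed pseudogene Gm13910. Reads from Hadhb may therefore have been lost or split, and its level is uncertain.

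The thiolase gene Acaa2 fell with overlap (log2 fold change -0.24; edgeR, adjusted p = 0.0284), and lost the call in 9 of 26 alternatives, among them leaving out knockout library 1 or 5.

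Auxiliary enzymes deal with double bonds of unsaturated fatty acids, and 2 of 4 fell. Eci2, an enoyl-CoA isomerase (chromosome 13, 34977748 to 35027096, minus strand), had 28.6, 30.2 and 35.7 CPM (lowest, median, highest) in Control and 19.8, 22.6, 20.4, 22.1 and 21.8 CPM in the knockout libraries. All knockout libraries were below Control, and it fell 1.46-fold (log2 fold change -0.54, SE 0.0772; edgeR, adjusted p = 3.86e-05). Its sister isomerase Eci1 fell with overlap (log2 fold change -0.49; edgeR, adjusted p = 0.0126). Among low-Y libraries the log2 fold change of Eci1 was -0.36 and was not called (edgeR, adjusted p = 0.179). Among high-Y libraries it was -0.67. Ech1, a dienoyl-CoA isomerase, had 12.5 ± 0.502 and 10.9 ± 0.941 CPM with ranges that did not overlap, yet did not pass (log2 fold change -0.20; edgeR, adjusted p = 0.106). Decr1, a dienoyl-CoA reductase, had a log2 fold change of -0.10 (95% interval -0.27 to 0.08), not called (edgeR, adjusted p = 0.371).

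The electron transfer genes diverged. Etfb, the beta subunit of electron transfer flavoprotein (chromosome 7, 43444083 to 43457800, plus strand), had 23.7, 26.8 and 29.3 CPM (lowest, median, highest) in Control and 15.3, 18.3, 19.1, 16.3 and 15.5 CPM in the knockout libraries. It fell 1.55-fold without overlap (log2 fold change -0.64, SE 0.0908; edgeR, adjusted p = 3.96e-05), and 67.3% of the 50-base stretches of its first-listed transcript are shared with the overlapping gene model Gm45233. Its partner Etfa, the alpha subunit, had 5.36 ± 0.949 and 6.12 ± 1.18 CPM and was not called (log2 fold change 0.21; 95% interval -0.16 to 0.57; edgeR, adjusted p = 0.354). Etfdh, which hands the electrons to ubiquinone, rose from 29.8 ± 1.75 to 34.4 ± 1.90 CPM with overlap (log2 fold change 0.21; edgeR, adjusted p = 0.0216), a call lost in 9 of 26 alternatives, among them leaving out knockout library 1 or 5.

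Pdk4 encodes a kinase that shuts down pyruvate dehydrogenase and so favours fatty acids over glucose, and it is a well-known PPAR target (chromosome 6, 5483351 to 5496309, minus strand). It had 8.15, 11.6 and 15.9 CPM (lowest, median, highest) in Control and 32.6, 24.6, 37.9, 33.3 and 34.9 CPM in the knockout libraries. Every knockout library was above every Control library, against the direction of the oxidation genes. Pdk4 rose 2.67-fold (log2 fold change 1.41, SE 0.156; edgeR, adjusted p = 3.44e-06), and by 1.26 on the log2 scale without Control libraries 5 and 6.

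In the peroxisomal oxidation group 3 of 6 fell, 1 rose and 2 did not pass. Cat, catalase (chromosome 2, 103453849 to 103485160, minus strand; promoter shown above), was the most abundant member per kilobase of exon in both groups, at 86.8 and 47.8 CPM per kilobase. It had 164, 226 and 300 CPM (lowest, median, highest) in Control and 121, 118, 129, 128 and 128 CPM in the knockout libraries. Control libraries ranged widely and knockout libraries hardly, without overlap. A lower coefficient of variation in the knockout was common, at 67.7% of the 34 genes and 77.6% of all genes tested. Cat fell 1.81-fold, from 227 ± 46.3 to 125 ± 5.14 CPM (log2 fold change -0.86, SE 0.119; edgeR, adjusted p = 3.85e-05).

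Acoxl, named for its similarity to acyl-CoA oxidases, had the most negative log2 fold change of the 34 at -1.56 (SE 0.343; edgeR, adjusted p = 0.00236). Its Control values ran from 10.1 CPM in library 6 to 39.9 CPM in library 4 and its knockout values from 4.07 to 10.7 CPM, so the ranges overlapped. The call was lost with the mesenchymal covariate (-1.30; edgeR, adjusted p = 0.140) and within the low-Y (-0.96; edgeR, adjusted p = 0.0664) and high-Y libraries (-1.39; edgeR, adjusted p = 0.0650). Acaa1a, the peroxisomal thiolase, fell from 44.9 ± 4.31 to 32.7 ± 4.52 CPM without overlap (log2 fold change -0.46; edgeR, adjusted p = 0.00133), and 35.1% of the 50-base stretches of its first-listed transcript occur in other genes, mainly its near copy Acaa1b.

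Acox3, an oxidase of branched chains, rose from 28.5 ± 4.30 to 36.9 ± 1.32 CPM without overlap (log2 fold change 0.38; edgeR, adjusted p = 0.00456). A gene on the opposite strand shares 15.7% of the 50-base stretches of its first-listed transcript. The bifunctional enzyme genes Ehhadh and Hsd17b4 did not pass, with log2 fold changes of -0.06 (95% interval -0.27 to 0.14; edgeR, adjusted p = 0.639) and -0.22 (95% interval -0.41 to -0.04; edgeR, adjusted p = 0.0525). Hsd17b4 was called lower without Control library 2 or 6.

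In peroxisome assembly and transport 3 of 4 fell. Abcd3, the main ATP-driven transporter of the peroxisomal membrane (chromosome 3, 121758774 to 121815302, minus strand), had 143, 174 and 223 CPM (lowest, median, highest) in Control and 93.8, 98.0, 96.1, 103 and 109 CPM in the knockout libraries. It fell 1.75-fold without overlap (log2 fold change -0.81, SE 0.0932; edgeR, adjusted p = 4.72e-06). Pex11a, which promotes peroxisome division (chromosome 7, 79735957 to 79743131, minus strand), had 20.4, 23.0 and 24.9 CPM in Control and 18.0, 12.7, 16.0, 14.2 and 13.6 CPM in the knockout libraries. Knockout library 1 came nearest to Control. Pex11a fell 1.54-fold (log2 fold change -0.62, SE 0.101; edgeR, adjusted p = 1.38e-04).

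The import genes moved little. Pex19, a chaperone for peroxisomal membrane proteins, fell from 111 ± 4.06 to 93.9 ± 4.50 CPM without overlap (log2 fold change -0.24; edgeR, adjusted p = 0.00176). It lost its call when only library size was scaled (-0.14; edgeR, adjusted p = 0.0783) and among low-Y libraries. Pex5, the receptor that carries enzymes into the peroxisome, had 71.3 ± 5.38 and 69.3 ± 5.87 CPM (log2 fold change -0.04; 95% interval -0.19 to 0.11) and was not called (edgeR, adjusted p = 0.683).

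**Figure D3:**
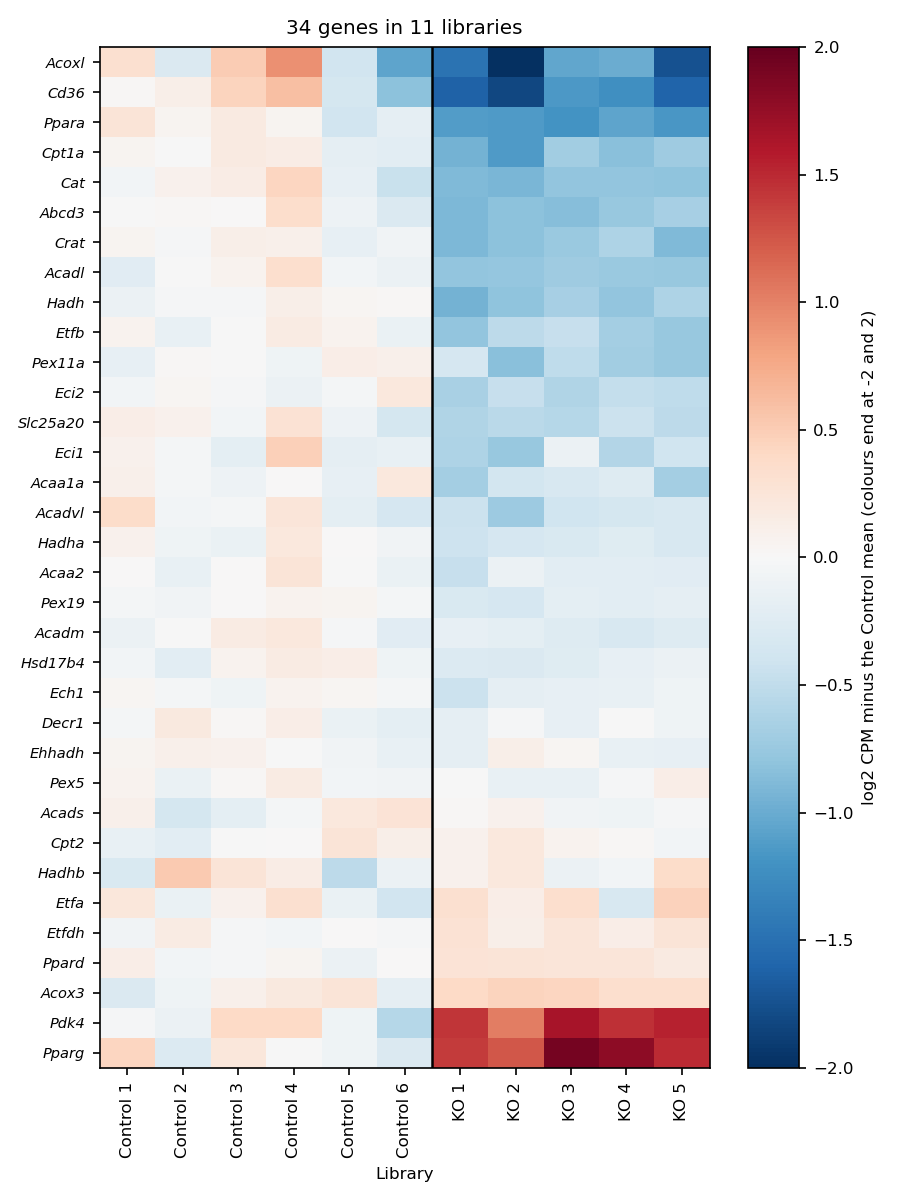
Log2 CPM of the 34 genes (rows, ordered by log2 fold change) in 11 libraries (columns) minus the Control mean of each gene, blue below and red above, with colours ending at -2 and 2. Acoxl and Cd36 at the top vary among Control libraries (highest in library 4, lowest in library 6), whereas Pdk4 and Pparg at the bottom are red in all 5 knockout libraries.

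Other genes of these pathways were read from 9 lists of 165 genes, of which 138 passed the filter on low counts. Of these 54 fell (39.1%, against 21.8% of all genes) and 18 rose (13.0%, against 21.1%), with a median log2 fold change of -0.17. With the mesenchymal covariate the counts were 24 and 9. These lists too were chosen with earlier results of these data known.

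Among 15 partners and coregulators of PPARs tested, 4 fell (26.7%, against 21.8% of all genes) and 3 rose (20.0%, against 21.1%), near the shares of all genes. Ppargc1a, the coactivator that drives mitochondrial oxidation programs, fell from 144 ± 45.7 to 59.2 ± 7.81 CPM with overlapping ranges (log2 fold change -1.28; edgeR, adjusted p = 3.31e-04). Lpin1, a phosphatidate phosphatase that also assists PPARs, fell from 50.2 ± 8.16 to 24.1 ± 1.21 CPM (-1.06; edgeR, adjusted p = 1.13e-06). Rxra, the usual PPAR partner, rose from 183 ± 6.19 to 226 ± 11.6 CPM (0.31; edgeR, adjusted p = 2.85e-04), and the orphan receptor gene Nr2f2 rose as well (0.51). The corepressor gene Ncor1 (-0.10) did not pass.

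Of 14 further PPAR targets tested, 7 fell (50.0%, against 21.8% of all genes) and 2 rose (14.3%, against 21.1%), with a median of -0.49. Fabp5, a fatty acid binding protein, fell from 39.2 ± 9.39 to 6.40 ± 1.26 CPM, or -2.61 on the log2 scale (edgeR, adjusted p = 1.28e-07). The thioesterase gene Acot1 fell by 0.67 on the log2 scale. Lpl (-0.48) and Slc27a1 (-0.11) did not pass.

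Genes that activate and carry fatty acids went both ways: 5 of 17 fell (29.4%, against 21.8% of all genes) and 3 rose (17.65%, against 21.1%). The acyl-CoA synthetase gene Acsl4 fell from 285 ± 60.9 to 111 ± 11.9 CPM, or -1.35 on the log2 scale (edgeR, adjusted p = 2.81e-06) while Acsl1 rose from 64.4 ± 10.2 to 123 ± 11.6 CPM (0.94; edgeR, adjusted p = 2.15e-06). Acsl5 (-0.05) did not pass. In the lipid droplet and lipolysis list 3 of 8 fell (37.5%, against 21.8% of all genes) and 1 rose (12.5%, against 21.1%). Those that fell were Plin3 (-0.51), Abhd5 (-0.99) and Lipa (-0.76), and Hilpda rose (0.35).

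In the rest of mitochondrial oxidation 9 of 21 fell (42.9%, against 21.8% of all genes) and 1 rose (4.76%, against 21.1%). The hydratase gene Echs1, which acts between the dehydrogenases and Hadh, fell from 61.6 ± 9.31 to 36.3 ± 1.87 CPM, or -0.76 on the log2 scale (edgeR, adjusted p = 1.12e-05). Ivd (-0.42) and Hsd17b10 (-0.34), of branched-chain amino acid breakdown, fell too. Of 5 ketone genes 2 fell (40.0%, against 21.8% of all genes) and 1, Bdh1 (0.57), rose (20.0%, against 21.1%). Oxct1, which uses ketone bodies, did not pass at 237 ± 31.5 and 232 ± 4.79 CPM.

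Of 32 other peroxisomal enzymes and transporters tested, 15 fell (46.9%, against 21.8% of all genes) and 4 rose (12.5%, against 21.1%). Agps, of ether lipid synthesis, fell from 211 ± 19.4 to 143 ± 4.72 CPM, or -0.55 on the log2 scale (edgeR, adjusted p = 8.49e-06). Gstk1, a glutathione transferase gene, fell by 1.87 on the log2 scale.

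Of 14 other peroxins 3 fell (21.4%, against 21.8% of all genes) and 2 rose (14.3%, against 21.1%), so the share that fell was near that of all genes. Pex26 was among those that fell (-0.66, edgeR, adjusted p = 1.29e-05). Pex5l rose most, from 1.37 ± 0.428 to 11.3 ± 2.03 CPM, or 3.05 on the log2 scale (edgeR, adjusted p = 1.27e-08). Its protein resembles PEX5 but is known mainly as a subunit of ion channels in neurons. Neuroendocrine markers, in which 9 of 10 rose, moved with it: their mean log2 CPM was 1.196 to 1.98 in Control and 3.87 to 4.17 in the knockout, and their summed level 32.7 to 63.8 and 584 to 727 CPM, with none of the 11 at 0 in all libraries. Their part in the rise of Pex5l was not tested.

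Around pyruvate dehydrogenase 6 of 12 genes fell (50.0%, against 21.8% of all genes) and 1 rose (8.33%, against 21.1%). Pdk1, another kinase of the complex, fell from 226 ± 12.8 to 174 ± 13.1 CPM, or -0.38 on the log2 scale (edgeR, adjusted p = 2.08e-04), opposite to Pdk4. The phosphatase genes split, with Pdp1 lower (-0.54) and Pdp2 higher (0.49). Pdha1 (0.10), a subunit of the enzyme itself, did not pass.

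The respiratory chain, which takes up the electrons of oxidation, was read from 29 nuclear subunit genes. Of these 6 fell and 0 rose (20.7% lower, against 21.8% of all genes), with a median of -0.06. In fatty acid synthesis 12 of 16 fell and 1 rose, with a median of -0.71. The difference between these lists and the 34 genes was not tested.

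**Figure D4:**
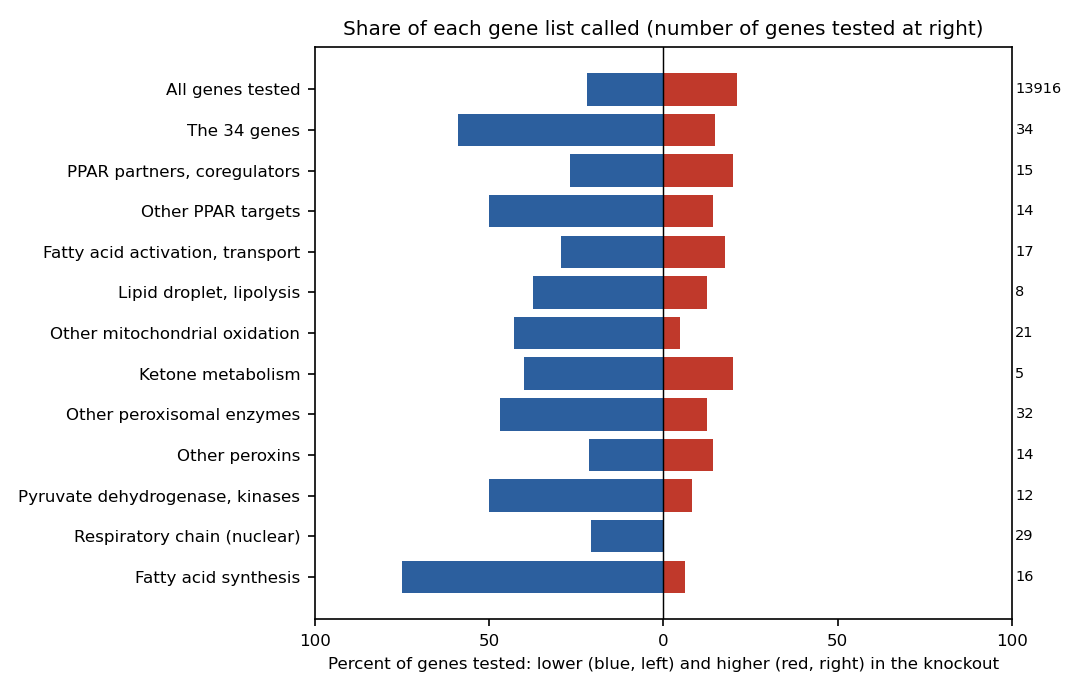
Percent of the genes tested in each list that were called lower (blue, to the left) or higher (red, to the right) in the knockout by edgeR, with the number tested at the right edge. The 34 genes stand at 58.8% lower and 14.7% higher, all genes at 21.8% and 21.1%, and the nuclear respiratory chain genes at 20.7% and 0.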

How the data were processed

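The authors deposited 1 table of raw counts per gene symbol, whole numbers, with a column for each of 11 libraries. Per the submitters' processing notes, the tools were HTSeq 2.0, Bowtie2 2.4.2, Trim Galore 0.4.2, Picard 2.18.22, SAMtools 1.10.0, DESeq2 and FastQC, with mm10 as the build and no role stated. The annotation, strand setting and treatment of multiply matching reads were not given in the sources used here. Hence genes that overlap on opposite strands cannot be told apart.

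The counts were filtered with edgeR's filterByExpr (13916 genes kept), scaled by TMM and tested two-sided by robust quasi-likelihood F-tests (edgeR 4.0.16, R 4.3.3). P-values were adjusted by Benjamini-Hochberg over the 13916 genes, with a call at 0.05. Fold changes are knockout over Control. Standard errors are unshrunk coefficients over the root of F, and 95% intervals use the test's degrees of freedom. Exon lengths, positions and shared 50-base stretches come from GENCODE M21, promoter windows from RefSeq. The fit was tested on simulated data.

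The members and gene lists were chosen with earlier results of these data known. Every member is named. Values by library are given for Ppara, Pparg, Ppard and Cd36, and for members called with an absolute log2 fold change of at least 0.5 and ranges that do not overlap. From each other list, up to 4 called genes with the smallest adjusted p and up to 2 abundant genes that were not called may be named; a few of these are not reported here. Alternatives were 3 other scalings, 2 other filters, DESeq2 1.42.0, limma-voom (limma 3.58.1), the fit without robust moderation, a replicate block, Y-linked and mesenchymal covariates, single libraries or Control libraries 5 and 6 left out, and a threshold of 0.01. Fits within the libraries with low or high Y-linked transcripts (mean log2 CPM under or over 3) and with a type 2 covariate were added after seeing the data.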

Additional observations from a re-analysis of the deposited data

Results flagged for a closer look

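Of 68 sets of values (34 genes in 2 groups), 5 held a library that stood apart from its group by Dixon's criterion, which flags about 1 set in 20 by chance. Control library 4 was the highest Control for Acaa2, at 54.8 CPM with the next at 46.2 CPM, and for Eci1, at 24.1 CPM with the next at 18.3 CPM. Control library 2 was the highest Control for Etfdh, at 33.2 CPM with the next at 29.9 CPM. Knockout library 2 was the lowest knockout for Acadvl, at 14.1 CPM with the next at 17.2 CPM. Knockout library 1 was the lowest knockout for Ech1, at 9.28 CPM with the next at 11.04 CPM.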

How the results depend on the processing

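Among the 34 genes, DESeq2, DESeq2 size factors, limma-voom, no robust moderation, either other filter on low counts and leaving out Control library 1 or 4 kept every direction and call. Leaving out single libraries gave 4 to 5 genes higher and 18 to 21 lower, 13 to 17 higher and 49 to 59 lower in the 9 pathway lists, and 2644 to 3120 higher and 2620 to 3269 lower over all genes. Library-size scaling alone, which moved the median of all genes to 0.107, gave 5 higher and 17 lower, and 3992 higher and 2095 lower over all genes.

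Counts that moved by over 1.5 times were these, with the cause not tested. Over all genes, higher and lower calls were 1611 and 1500 (mesenchymal covariate), 1932 and 1821 (low-Y libraries), 869 and 933 (high-Y libraries), and 767 and 597 (type 2 covariate). Among the 34 genes they were 3 and 12 with the mesenchymal covariate and 2 and 9 among high-Y libraries, with 1 lower under the type 2 covariate. In the 9 pathway lists they were 9 and 24 (mesenchymal), 2 and 17 (high-Y), 9 and 3 (type 2), with 33 lower among low-Y libraries and 11 higher at the 0.01 threshold. In the high-Y set the lone knockout library is assumed to vary like the others.

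Signs turned mainly under the type 2 covariate: Cd36 1.53, Cpt1a 0.13, Cpt2 -0.50, Slc25a20 0.51, Acadm 0.26, Acadvl 0.87, Hadha 0.07, Acaa2 0.22, Eci1 0.74, Decr1 0.42, Acoxl 2.85, Ehhadh 0.25, Hsd17b4 0.017, Cat 0.58, Pex5 0.25 and Abcd3 0.098. All other turns were in genes not called. With library size alone they were Acads 0.073, Decr1 0.013, Ehhadh 0.046 and Pex5 0.067. Upper-quartile factors gave Acads 0.027 and Pex5 0.017, the Y-linked covariate Hadhb -0.019 and Pex5 0.0079, and the mesenchymal covariate Decr1 0.10 and Ehhadh 0.022. Without Control libraries 5 and 6, Acads was 0.10 and Hadhb -0.094. Low-Y libraries gave Acads 0.0029, Hadhb -0.091 and Pex5 0.055, and high-Y libraries Cpt2 -0.014 and Etfa -0.45. Leaving out single libraries gave Acads -0.092 to 0.033, above 0 without Control 5 (0.014) or 6. It gave Hadhb -0.027 to 0.19, below 0 without Control 5 or knockout 5 (-0.0042), and Pex5 -0.087 to 0.0053, above 0 without knockout 2.

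With the replicate block (numbers 1 to 5 as a block), 4 of the 34 were higher and 20 lower, Etfdh lost its call and Acads was 0.041; over all genes 3065 were higher and 3105 lower. Same-numbered libraries had deviations that correlated at -0.0592 to 0.271, and only knockout library 5 correlated best with its own number, so the numbers do not pair the libraries.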
